A study of Mus musculus with 24 samples.

Results

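Natural killer (NK) cells of mice lacking FcRγ, the adaptor chain encoded by Fcer1g on chromosome 1, were set against NK cells of WT mice, and 4 genes far from that locus stood higher in the KO cells. They are Prrc1 on chromosome 18, Srp54b on chromosome 12, and Gm8923 and Gm4724, which lie 34.2 kb apart on chromosome 2. These 4 of the 38215 genes in the deposited table were selected on their KO-against-WT difference in these same libraries, so that difference is given as a description without a test. The libraries were poly(A) RNA from NK cells in 6 groups of 4: KO and WT naive spleen, KO and WT spleen labelled as IL-15 treated, and KO and WT tumour-bearing lung, whose treatment label is also naive. FcRγ KO or WT is the only genetic label. The strain, the way the KO was made, backcrossing, age, the number of animals, the tumour and the IL-15 regimen were not given in the sources used here, and DNA copy number was not measured here. Nothing says whether the 4 libraries of a group came from separate animals, so p-values measure the spread between libraries only.

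Prrc1 encodes a proline-rich coiled-coil protein that, in human cells, sits at endoplasmic reticulum (ER) exit sites, where the COPII coat buds vesicles, and has been tied to protein kinase A. Srp54 is the GTPase of the signal recognition particle, the RNA-protein machine that binds the signal sequence of a nascent chain and brings its ribosome to the translocon of the ER. Gm8923 and Gm4724 belong to an array of genes with repeated Cys2-His2 zinc fingers, modules that bind DNA. Arrays of this kind grow by duplication, so neighbouring genes can be almost identical. In NK cells, which carry ER-made receptors, perforin and granzymes, the secretory genes are part of the general machinery.

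The table's coordinates are on GRCm38. Srp54b lies at chr12:55155104-55189213 on the forward strand. Gm8923 lies at chr2:175469985-175482171 on the forward strand and Gm4724 at chr2:175422300-175435807 on the reverse strand. Gm8923 is called Zfp965 in GENCODE M21. The names of 2 Srp54 copies are swapped between the table and GENCODE M21: the table's Srp54c, at chr12:55089202-55112891, is called Srp54a there, and the table's Srp54a, at chr12:55239326-55263020, is called Srp54c there. The table's names are used throughout.

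Sequence similarity bears on every value of 3 of the 4 genes, so the stretches in which the copies differ are shown first, read from GENCODE M21 coding sequences on GRCm38. The coding sequences of Srp54b and Srp54c, 1512 bases each, had 0 differences, and Srp54a had 6 differences from both. In coding bases 846 to 965 the copies differ at 3 positions, written in capitals, and Srp54a is the copy that stands apart at all 3:
Srp54b: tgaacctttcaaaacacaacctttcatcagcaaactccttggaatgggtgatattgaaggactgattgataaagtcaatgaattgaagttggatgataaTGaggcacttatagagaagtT
Srp54c: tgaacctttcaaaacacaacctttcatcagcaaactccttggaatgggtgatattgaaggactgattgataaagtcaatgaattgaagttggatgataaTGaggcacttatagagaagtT
Srp54a: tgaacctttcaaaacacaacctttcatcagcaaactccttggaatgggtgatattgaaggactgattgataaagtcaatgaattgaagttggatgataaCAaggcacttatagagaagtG

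On chromosome 2, Gm4724 encodes 498 residues with 13 zinc finger motifs and Gm8923 encodes 318 residues with 6. The coding sequence of Gm4724, 1494 bases, had 0 differences from those of Gm4631 and Gm14434, other genes of the array. Gm8923 was 98.74% identical to Gm4723, with 12 differences over 954 aligned bases, and 90.75% identical to Gm4724 over 897. In a 120-base stretch through the fingers, aligned to Gm8923 in both cases, the 20 positions at which the 3 genes are not all alike are in capitals (coding bases 457 to 576 of Gm8923, 652 to 771 of Gm4724 and 457 to 576 of Gm4723):
Gm8923: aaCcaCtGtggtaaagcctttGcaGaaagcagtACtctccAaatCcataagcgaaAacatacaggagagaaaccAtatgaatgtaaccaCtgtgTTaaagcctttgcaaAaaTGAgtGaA
Gm4724: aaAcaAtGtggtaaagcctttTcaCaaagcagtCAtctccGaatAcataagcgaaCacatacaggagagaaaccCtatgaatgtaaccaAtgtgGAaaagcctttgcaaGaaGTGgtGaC
Gm4723: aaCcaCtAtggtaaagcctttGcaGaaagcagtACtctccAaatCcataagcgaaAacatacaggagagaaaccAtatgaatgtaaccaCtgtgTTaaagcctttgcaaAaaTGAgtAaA

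Gm4724 differs from Gm8923 at 18 of these 120 positions and Gm4723 differs from Gm8923 at 2. Over whole GENCODE M21 transcripts, the share of 100-base windows found in no other gene was 100% for Prrc1, 6.6% for Gm8923, 1.5% for Srp54b and 0.2% for Gm4724. Of the Srp54b windows, 88.5% also occurred in Srp54c and 83.3% in Srp54a. Gm4724 shared 99.8% of its windows with Gm14308 and 95.6% each with Gm14434 and Gm2026, and Gm8923 shared 83.7% with Gm14306. The deposited values are expected counts, in which RSEM, an estimator that divides reads matching several genes among them, may place a shared read on any copy in part. Prrc1 had whole counts in all 24 libraries, whereas Srp54b had fractional counts in 24, Gm8923 in 21 and Gm4724 in 16. Only Prrc1 overlaps another annotated gene, the antisense 4930511M06Rik, which had a count of 0.0 in every library.

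KO naive replicate 1 held 9.68 M counts (M, 1000000) and WT lung replicate 1 held 9.77 M, and the other libraries held 21.18 M to 32.1 M. Fcer1g checked the genotype labels, at 1.25 to 16.2 CPM (counts per 1000000) in the 12 KO libraries and 253 to 795 CPM in the 12 WT libraries. Summed CPM of 9 NK cell markers was 14600 to 17200 in KO naive libraries and 19000 to 21100 in WT naive libraries (exact two-sided permutation p = 0.0286, adjusted p = 0.172 over 30 tests of 10 marker lists in 3 states). That sum is weighted to Gzma, which averaged 5860 CPM in KO and 8320 CPM in WT naive spleen. Eomes averaged 678 CPM in KO and 624 CPM in WT, and Tbx21 averaged 641 CPM in KO and 651 CPM in WT. All the markers except Eomes had lower means in KO. Of those 30 tests, 0 had an adjusted p under 0.05 and 5 had an unadjusted p under 0.05, each at 0.0286, the smallest that 4 against 4 allows. In lung, summed monocyte and macrophage markers were at 145 to 608 CPM in KO libraries and 54.9 to 128 CPM in WT libraries, with an adjusted p of 0.172 by the same exact test. The other lists without overlap were B cell markers in lung (139 to 183 CPM in KO, 108 to 134 CPM in WT), endothelial markers in naive spleen (96.3 to 124 CPM in KO, 53.1 to 74.8 CPM in WT) and erythroid markers under IL-15 (0.123 to 0.415 CPM in KO, 0 to 0.119 CPM in WT). The part of cell composition in the values of the 4 genes was not tested, and in bulk RNA more cells of a type and more RNA per cell cannot be told apart.

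Prrc1, at chr18:57354733-57392719 on the forward strand, is the member that shares no window with another gene. Like the other 3, it is annotated as protein coding. Its 4 libraries held 71.7, 91.4, 75.6 and 101 CPM in KO naive spleen, against 42.5, 38.2, 49.7 and 44.0 CPM in WT naive spleen. Under IL-15 the libraries held 101, 103, 93.2 and 86.9 CPM in KO cells and 40.6, 40.6, 47.8 and 46.4 CPM in WT cells. In tumour-bearing lung they held 64.0, 69.0, 66.9 and 64.5 CPM in KO cells and 35.1, 35.0, 34.3 and 36.8 CPM in WT cells. In each state the groups were apart, and the lowest KO library of any state, at 64.0 CPM, lay above the highest WT library of any state, at 49.7 CPM. Means in KO were 1.95 times those in WT for naive cells, 2.19 times for IL-15 cells and 1.87 times for lung cells. On the fitted log2 scale KO exceeded WT by 0.94 ± 0.12, 1.12 ± 0.12 and 0.90 ± 0.09 in the same order of states (standard errors).

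Srp54b had a profile much like that of Prrc1. It stood at 88.1, 80.4, 93.9 and 86.3 CPM in KO naive spleen, against 52.3, 45.5, 54.1 and 49.0 CPM in WT naive spleen. The IL-15 values were 88.9, 91.4, 76.1 and 89.3 CPM in KO cells and 46.9, 48.5, 42.0 and 47.1 CPM in WT cells. Lung KO libraries had 62.0, 71.1, 77.1 and 75.9 CPM, and lung WT libraries had 34.2, 40.3, 41.6 and 32.8 CPM. Here too the groups did not overlap in any state, and the log2 difference was 0.77 ± 0.10 in naive cells, 0.89 ± 0.10 in IL-15 cells and 0.94 ± 0.12 in lung cells.

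The chromosome 2 pair differed in kind: the genes were low in KO cells and at or near 0 in WT cells. Gm8923 had 2.31, 3.58, 3.54 and 7.38 CPM in KO naive spleen, against 0.311, 0.075, 0.306 and 0.165 CPM in WT naive spleen. Under IL-15 it had 4.35, 3.30, 3.59 and 4.35 CPM in KO cells, against 0.509, 0, 0.0605 and 0.179 CPM in WT cells. In lung the KO libraries had 1.32, 2.01, 3.00 and 3.12 CPM, against 0, 0.295, 0.119 and 0 CPM in WT. Summed over a group, rounded counts were 387 in KO and 22 in WT naive spleen, 478 in KO and 25 in WT IL-15 cells, and 227 in KO and 10 in WT lung cells. Scaled by depth, these give KO-to-WT ratios of 21.8 (95% exact counting interval 14.2 to 35.2), 18.9 (12.7 to 29.6) and 19.6 (10.4 to 41.3). Such intervals, here and for Gm4724, cover counting error only. They leave out how shared reads were divided among copies, and for genes chosen on this difference they are no test.

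Gm4724 showed the larger ratio. Its KO libraries had 5.21, 8.81, 9.49 and 8.61 CPM in naive spleen, against 0.194, 0.712, 0 and 0 CPM in WT. Under IL-15 the KO libraries had 5.33, 3.55, 9.27 and 9.77 CPM, against 0, 0, 0.0907 and 0.477 CPM in WT. In lung the KO libraries had 1.88, 6.28, 2.35 and 4.96 CPM, against 0, 0, 0 and 0.115 CPM in WT. The summed rounded counts were 725 in KO and 24 in WT naive spleen, 871 in KO and 19 in WT IL-15 cells, and 376 in KO and 3 in WT lung cells. KO-to-WT ratios were 37.4 (25.0 to 58.8), 45.4 (28.9 to 75.8) and 108 (36.7 to 526), the last resting on 3 WT counts. No KO library of either gene was as low as any WT library, but the KO libraries varied widely: the coefficient of variation of Gm4724 was 23.9% in naive KO cells, 43.4% in IL-15 KO cells and 54.4% in lung KO cells, against 16.1%, 7.88% and 3.46% for Prrc1.

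**Figure D1:**
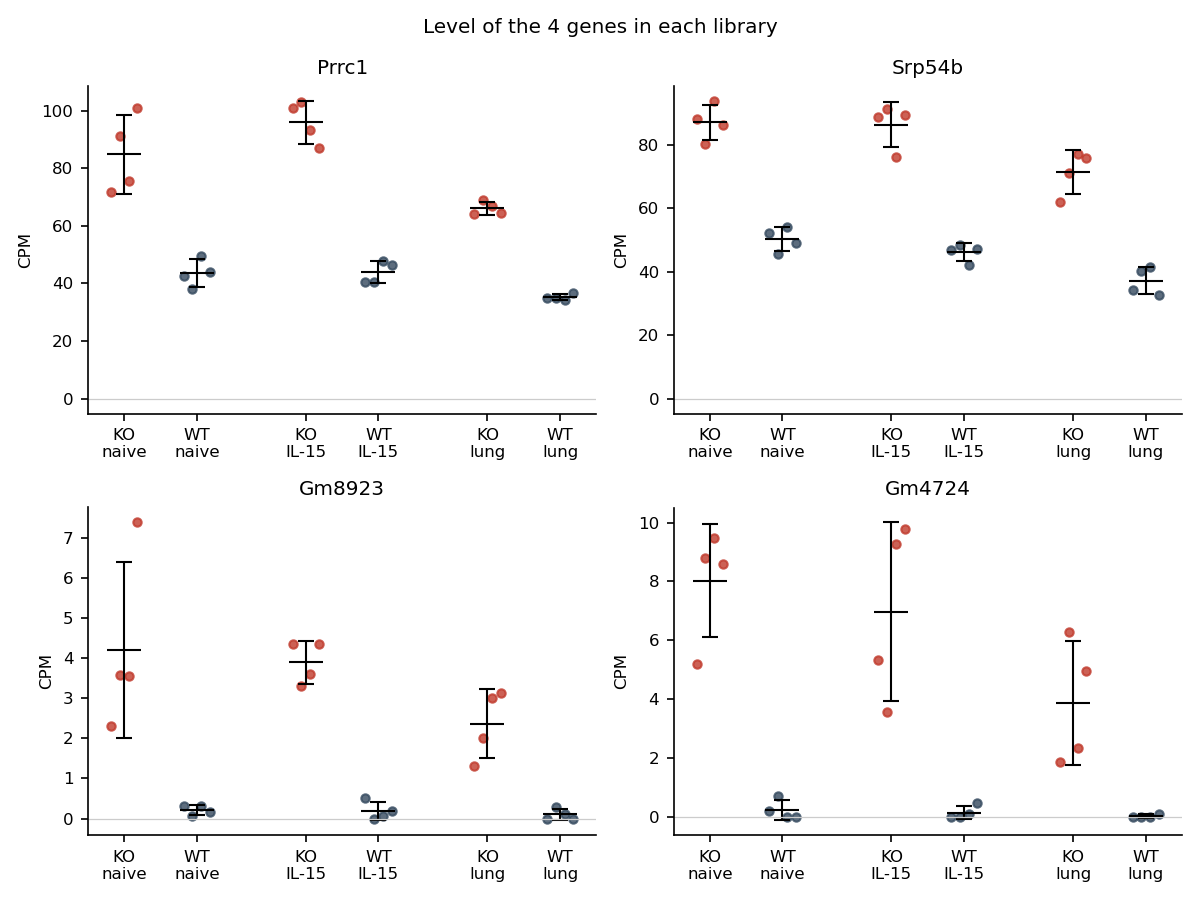
Level of Prrc1, Srp54b, Gm8923 and Gm4724 in CPM in each of 24 libraries, with KO (red) left of WT (dark) in naive spleen, IL-15 spleen and tumour-bearing lung; bars are the mean ± SD of 4 libraries. For Prrc1 the KO libraries start at 64.0 CPM and the WT libraries end at 49.7 CPM, and for Gm4724 the WT libraries stay at or below 0.712 CPM.

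Each of the 4 genes had all 12 KO libraries above all 12 WT libraries. Among 14275 genes tested over the 24 libraries, 7 did so, or 0.049%, and the members were chosen on this contrast, so nothing is read from their count. A further 6 genes had all KO libraries below all WT libraries. Of the 13 together, 8 lie on chromosome 1 and 5 elsewhere: the 4 genes described and Hist1h4m, a histone H4 gene on chromosome 13. Hist1h4m had 106 counts in KO naive spleen, 114 in KO IL-15 spleen and 298 in KO lung, and 0 in all WT libraries. That is at least 43.8-fold, 37.6-fold and 85.6-fold higher in KO against a floor of 3 counts over the WT group, and its counts were fractional in 11 of the 12 libraries in which it was found.

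Per kilobase of exon (GENCODE M21), Srp54b was the most abundant of the 4 in KO naive spleen at 19.3 CPM per kb, followed by Prrc1 at 7.08, Gm4724 at 3.05 and Gm8923 at 1.81 CPM per kb. The divisor takes all annotated exons, 11993 bases for Prrc1 and 4513 for Srp54b. Their protein-coding transcripts held 5037 and 3742 distinct 100-base windows, so this divisor lowers Prrc1 more than Srp54b. In WT naive spleen the order was Srp54b at 11.1, Prrc1 at 3.63, Gm8923 at 0.0921 and Gm4724 at 0.0861 CPM per kb. Those last 2 did not differ beyond their spread between libraries. All 4 genes passed the filter on low counts, the chromosome 2 pair through its KO libraries, so the number passing supports nothing.

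Differences between states were not used in choosing the genes and were tested with edgeR, adjusted over all genes. Prrc1 was lower in lung than in naive spleen in both genotypes. The means were 66.1 ± 2.29 CPM in KO lung and 84.9 ± 13.7 CPM in KO naive spleen (SD, n = 4 each), a log2 change of -0.36 ± 0.11 (edgeR adjusted p = 0.00865). In WT the means were 35.3 ± 1.07 CPM in lung and 43.6 ± 4.77 CPM in naive spleen, a log2 change of -0.30 ± 0.11 (edgeR adjusted p = 0.0246). Among 14275 genes, 18.1% were lower and 24.3% higher in KO lung, and 20% were lower and 29.2% higher in WT lung, so a call in this comparison is common. All lung libraries came from tumour-bearing lung and all naive ones from spleen, so tissue and tumour cannot be told apart. Summed lung epithelium markers were at 26.8 to 411 CPM in KO lung and 2.02 to 7.62 CPM in KO naive spleen. In WT they were at 19.8 to 66.5 CPM in lung and 2.49 to 3.11 CPM in naive spleen.

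Srp54b also fell in lung. It averaged 71.5 ± 6.83 CPM in KO lung and 87.2 ± 5.54 CPM in KO naive spleen (log2 change -0.28 ± 0.10, edgeR adjusted p = 0.0270), and 37.2 ± 4.34 CPM in WT lung and 50.2 ± 3.80 CPM in WT naive spleen (log2 change -0.43 ± 0.10, edgeR adjusted p = 0.00128). In both genotypes every lung library of Prrc1 and of Srp54b lay below every naive spleen library of that gene. The call for Srp54b in KO cells was lost without KO lung replicate 1 (adjusted p = 0.114), KO lung replicate 2 (0.0567) or KO naive replicate 3 (0.0832), and with no filter on low counts (0.0639). For Prrc1 it was lost in KO cells without naive replicate 4 (0.0553), and in WT cells without naive replicate 3 (0.102), lung replicate 2 (0.0512) or lung replicate 3 (0.0581). Gm8923 and Gm4724 did not pass in lung: their log2 changes were -0.84 (95% interval -2.13 to 0.46) and -1.06 (-2.50 to 0.38) in KO cells. Gm4724 passed in KO cells only when the groups compared were fitted alone (edgeR adjusted p = 0.0451).

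Under IL-15 none of the 4 genes passed in either genotype, in a comparison in which 20.7% of 13344 genes rose and 21% fell in KO cells and 26.4% rose and 26.0% fell in WT cells. The IL-15-over-naive log2 difference of Prrc1 was 0.11 (95% interval -0.15 to 0.37) in KO and -0.08 (-0.34 to 0.18) in WT cells. For Srp54b it was -0.08 (-0.30 to 0.13) in KO and -0.21 (-0.42 to 0.01) in WT cells, where the edgeR adjusted p was 0.1. Intervals for the chromosome 2 pair were wide, -1.39 to 1.01 for Gm8923 and -1.71 to 1.15 for Gm4724 in KO cells, so changes within them were not resolved with these libraries. The IL-15 and lung comparisons share the naive libraries.

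Counts of genes that share windows were then summed. A sum that includes a member carries the choice of that member on KO against WT. Its ratio and the gap between its KO and WT libraries are therefore a description without a test. The 3 Srp54 copies together gave 146, 163, 186 and 186 CPM in KO naive spleen, against 130, 112, 141 and 117 CPM in WT naive spleen. Under IL-15 they gave 152, 188, 173 and 183 CPM in KO cells and 121, 111, 118 and 115 CPM in WT cells. In lung they gave 135, 141, 151 and 160 CPM in KO cells and 93.2, 89.2, 92.3 and 88.3 CPM in WT cells. No KO library overlapped a WT library of the same state in these sums, but the log2 difference was smaller than that of Srp54b alone: 0.42 ± 0.11, 0.57 ± 0.11 and 0.69 ± 0.10 in the 3 states, or 1.34-fold, 1.48-fold and 1.62-fold.

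Within that sum the copies took different shares. Srp54b held 51.7 ± 5.98% of it in KO naive spleen and 40.4 ± 1.53% in WT naive spleen, and Srp54a held 27.4 ± 6.54% in KO and 45.5 ± 1.59% in WT (SD, n = 4 each). Srp54c, identical to Srp54b in coding sequence, averaged 35.9 ± 8.23 CPM in KO and 17.9 ± 5.0 CPM in WT naive spleen, a log2 difference of 0.98 ± 0.29 (edgeR adjusted p = 0.0243). It averaged 31.6 ± 10.5 CPM in KO and 16.6 ± 6.17 CPM in WT cells under IL-15 (log2 difference 0.91 ± 0.29, edgeR adjusted p = 1.00) and 23.3 ± 3.44 CPM in KO and 9.82 ± 1.12 CPM in WT lung (1.26 ± 0.15, adjusted p = 0.00235). The naive call was lost without KO naive replicates 3 or 4 or WT naive replicates 2 or 4, with adjusted p up to 0.0778. Srp54a did not pass in any state, at -0.29 ± 0.17, 0.05 ± 0.17 and 0.25 ± 0.12 (edgeR adjusted p = 0.245, 1.00 and 0.473). Since the copies share most windows, a change of one copy's reads cannot be told apart from a change in how shared reads were divided. For the same reason the tests of Srp54c and Srp54a are not independent of the choice of Srp54b.

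**Figure D2:**
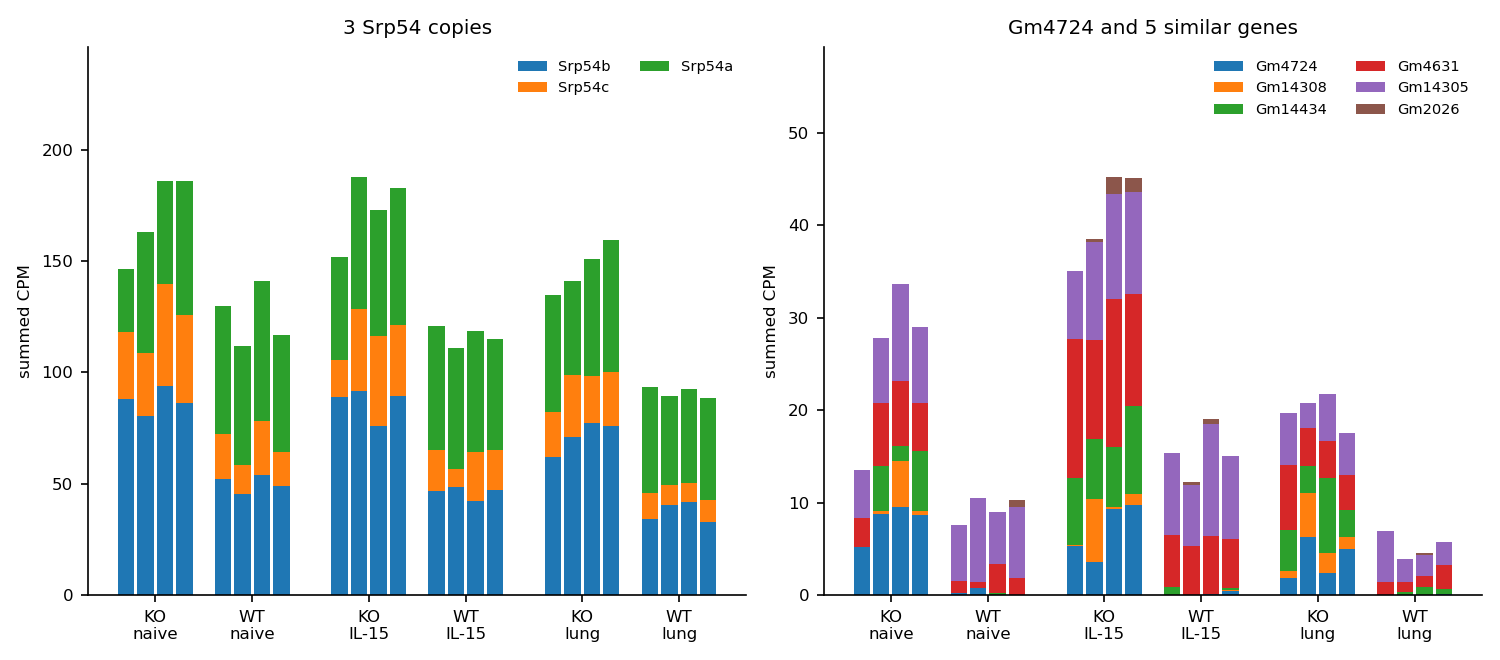
Summed CPM (vertical axis) in each library, stacked by gene, for the 3 Srp54 copies (left) and for Gm4724 with 5 genes that share most of its windows (right), KO left of WT in each state. The summed Srp54 copies reach 135 to 188 CPM in KO and 88.3 to 141 CPM in WT libraries, and the split of the Gm4724 set among genes changes from library to library.

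Gm4724 was summed with the 5 genes that share most of its windows, Gm14308, Gm14434, Gm2026, Gm14305 and Gm4631. The set held 26.0 ± 8.70 CPM in KO and 9.35 ± 1.34 CPM in WT naive spleen, 40.9 ± 5.03 CPM in KO and 15.4 ± 2.79 CPM in WT cells under IL-15, and 19.9 ± 1.79 CPM in KO and 5.27 ± 1.36 CPM in WT lung (SD, n = 4 each). Its KO-over-WT ratio was 2.75-fold, 2.63-fold and 3.85-fold, far under that of Gm4724 alone, and no KO library overlapped a WT library of the same state. Gm4724, chosen on that contrast, made up 32.0 ± 4.59% of this sum in KO and 2.34 ± 3.21% in WT naive spleen, so nothing is read from the gap. Gm14305, which takes part of that sum, averaged 7.74 ± 2.24 CPM in KO and 7.07 ± 1.57 CPM in WT naive spleen. Gm14308, with which Gm4724 shares nearly all windows, shows how the split varies: in KO IL-15 cells it had 0.0375, 6.88, 0.207 and 1.14 CPM where Gm4724 had 5.33, 3.55, 9.27 and 9.77 CPM.

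Gm8923 was summed with the 5 genes that hold the largest shares of its windows: Gm14306 with 83.7%, Gm4723 with 39.3%, Gm14327 with 18.2%, and Gm14288 and Gm14440 with 17.1% each. Most of these genes share a minority of its windows, and Gm14288 averaged 6.18 ± 1.73 CPM in KO and 8.06 ± 2.32 CPM in WT cells under IL-15. This set held 10.2 ± 3.60 CPM in KO and 2.41 ± 1.87 CPM in WT naive spleen, 17.5 ± 1.39 CPM in KO and 9.81 ± 2.07 CPM in WT cells under IL-15, and 11.3 ± 1.51 CPM in KO and 3.52 ± 1.66 CPM in WT lung. The ratios were 4.22-fold, 1.77-fold and 3.11-fold. A wider set took the 19 protein-coding genes within 1 Mb with at least 3 matches to a zinc finger motif. It included both members and left out Zfp831, another zinc finger gene within 1 Mb. This wider set summed to 35.0 ± 12.1 CPM in KO and 11.4 ± 2.16 CPM in WT naive spleen. Under IL-15 it summed to 58.1 ± 9.94 CPM in KO and 29.9 ± 7.02 CPM in WT cells. In lung it summed to 28.4 ± 0.932 CPM in KO and 10.2 ± 2.32 CPM in WT. These ratios were 3.03-fold, 1.92-fold and 2.74-fold.

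**Figure D3:**
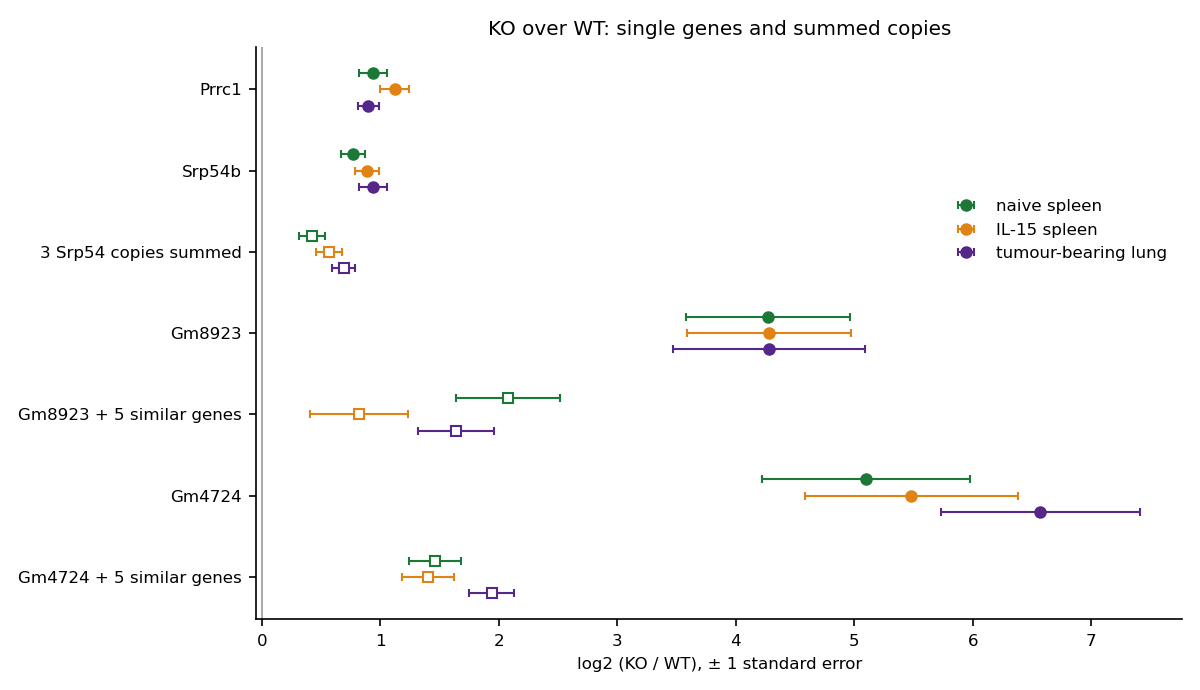
Fitted log2 ratio of KO over WT (horizontal axis, ± 1 standard error) for the single genes (filled circles) and for sums over genes that share windows (open squares), coloured by state. Prrc1 lies between 0.90 and 1.12; summing moves Srp54b to between 0.42 and 0.69 and Gm4724 to between 1.40 and 1.94.

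Neighbours within 1 Mb, which were tested across all genes, were examined for each member. In KO against WT, 11.1% of 13344 genes were higher and 9.22% lower in naive spleen, 0.0824% higher and 0.0525% lower under IL-15, and, of 13129 genes, 0.305% higher and 0.32% lower in lung. The 2705 calls in naive spleen became 1697 without WT naive replicate 3. The 82 in lung became 448 without WT lung replicate 1, and 41, 45, 47 and 50 without KO lung replicates 2, 3 or 4 or WT lung replicate 2. Around Srp54b, 4 of 19 tested neighbours were higher and 3 lower in naive spleen, 0 were called under IL-15 and 2 were higher in lung. The edgeR count of 0 under IL-15 goes with 3 neighbours at an unadjusted p under 0.05 and 1 called by DESeq2.

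Of the 4 higher neighbours of Srp54b in naive spleen, 3 lay next to it, among them Srp54c, whose tests are not independent of the choice of Srp54b. Running along the chromosome, Srp54c (42.2 kb away), Fam177a (13.0 kb), Srp54b itself and 1700047I17Rik2 (10.3 kb) stood higher in KO naive spleen, whereas the genes beyond them, 2700097O09Rik (75.0 kb) and Srp54a (50.1 kb), did not pass. Fam177a had 13.0, 36.2, 30 and 33.4 CPM in KO naive spleen, against 15.1, 13.2, 17.3 and 15.6 CPM in WT. The lowest KO library is the shallow replicate 1, and the groups overlap through it. Its log2 difference was 0.86 ± 0.23 in naive spleen (edgeR adjusted p = 0.0151, 0.0512 without KO naive replicate 2), 0.77 ± 0.23 under IL-15 (1.00) and 0.84 ± 0.11 in lung (0.00254).

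1700047I17Rik2 had 22.4, 13.9, 14.0 and 18.6 CPM in KO naive spleen, against 9.95, 5.62, 8.17 and 7.25 CPM in WT, with no overlap. Its log2 difference was 1.12 ± 0.22 (edgeR adjusted p = 0.00235), and 0.88 ± 0.22 under IL-15 (0.368) and 0.56 ± 0.21 in lung (0.340), where it did not pass. Fam177a and 1700047I17Rik2 are themselves copies with 0 differences over 621 coding bases, and Fam177a shares 98.5% of its windows with 1700047I17Rik2. Their sum was 45.3 ± 7.49 CPM in KO and 23.1 ± 3.03 CPM in WT naive spleen, 51.0 ± 3.46 CPM in KO and 28.8 ± 4.89 CPM in WT cells under IL-15, and 62.1 ± 3.68 CPM in KO and 36.8 ± 4.00 CPM in WT lung, or 1.94-fold, 1.75-fold and 1.70-fold. In these sums no KO library overlapped a WT library of the same state.

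Farther out, 4 neighbours of Srp54b passed in naive spleen only among the 3 states, and the difference between states was not tested. Egln3, an oxygen-dependent prolyl hydroxylase, rose by 0.80 ± 0.22 on the log2 scale (edgeR adjusted p = 0.0180). Snx6, a sorting nexin, changed by -0.47 ± 0.11 (0.00504), Eapp, an E2F-associated protein, by -0.54 ± 0.16 (0.0205), and Sptssa, a subunit of serine palmitoyltransferase, by -0.48 ± 0.15 (0.0313). Of the 8 fits that each left out 1 library, Snx6 passed in 8, Egln3 in 6, lost without KO naive replicate 4 or WT naive replicate 3, Eapp in 4 and Sptssa in 2. Eapp and Sptssa were both lost without KO naive replicates 1 or 2 or WT naive replicates 2 or 3, and Sptssa also without KO naive replicate 4 or WT naive replicate 1.

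Around Prrc1, 7 of 18 annotated neighbours were tested. In naive spleen 1 was higher and 1 lower, and 0 were called in the other 2 states by edgeR, with 2 under IL-15 and 3 in lung at an unadjusted p under 0.05 and 1 in each by DESeq2. Slc12a2, the sodium-potassium-chloride cotransporter NKCC1, lies 486.0 kb away, with 100% of its windows found in no other gene. It had 26.3, 32.0, 24.2 and 26.7 CPM in KO naive spleen, against 12, 14.5, 7.86 and 9.23 CPM in WT. Under IL-15 it had 24.3, 32.8, 30.8 and 32.5 CPM in KO cells and 15.4, 19.1, 15.9 and 20.3 CPM in WT cells, and in lung 16.9, 18.6, 12.2 and 27.6 CPM in KO and 9.64, 9.48, 10.2 and 5.81 CPM in WT cells. KO and WT libraries did not overlap in any of the 3 states. The log2 difference was 1.30 ± 0.18 in naive spleen (edgeR adjusted p = 0.000129), 0.76 ± 0.17 under IL-15 (0.172) and 1.11 ± 0.26 in lung (0.0964).

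March3, a membrane ubiquitin ligase 429.2 kb on the other side of Prrc1, averaged 1.62 ± 0.917 CPM in KO and 4.20 ± 1.19 CPM in WT naive spleen. It fell by 1.36 on the log2 scale with a standard error of 0.40 (edgeR adjusted p = 0.0231), a call lost without WT naive replicate 1 or 3. The 5 other tested neighbours, among them C330018D20Rik at 379.4 kb, the nearest, did not pass in any state.

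**Figure D4:**
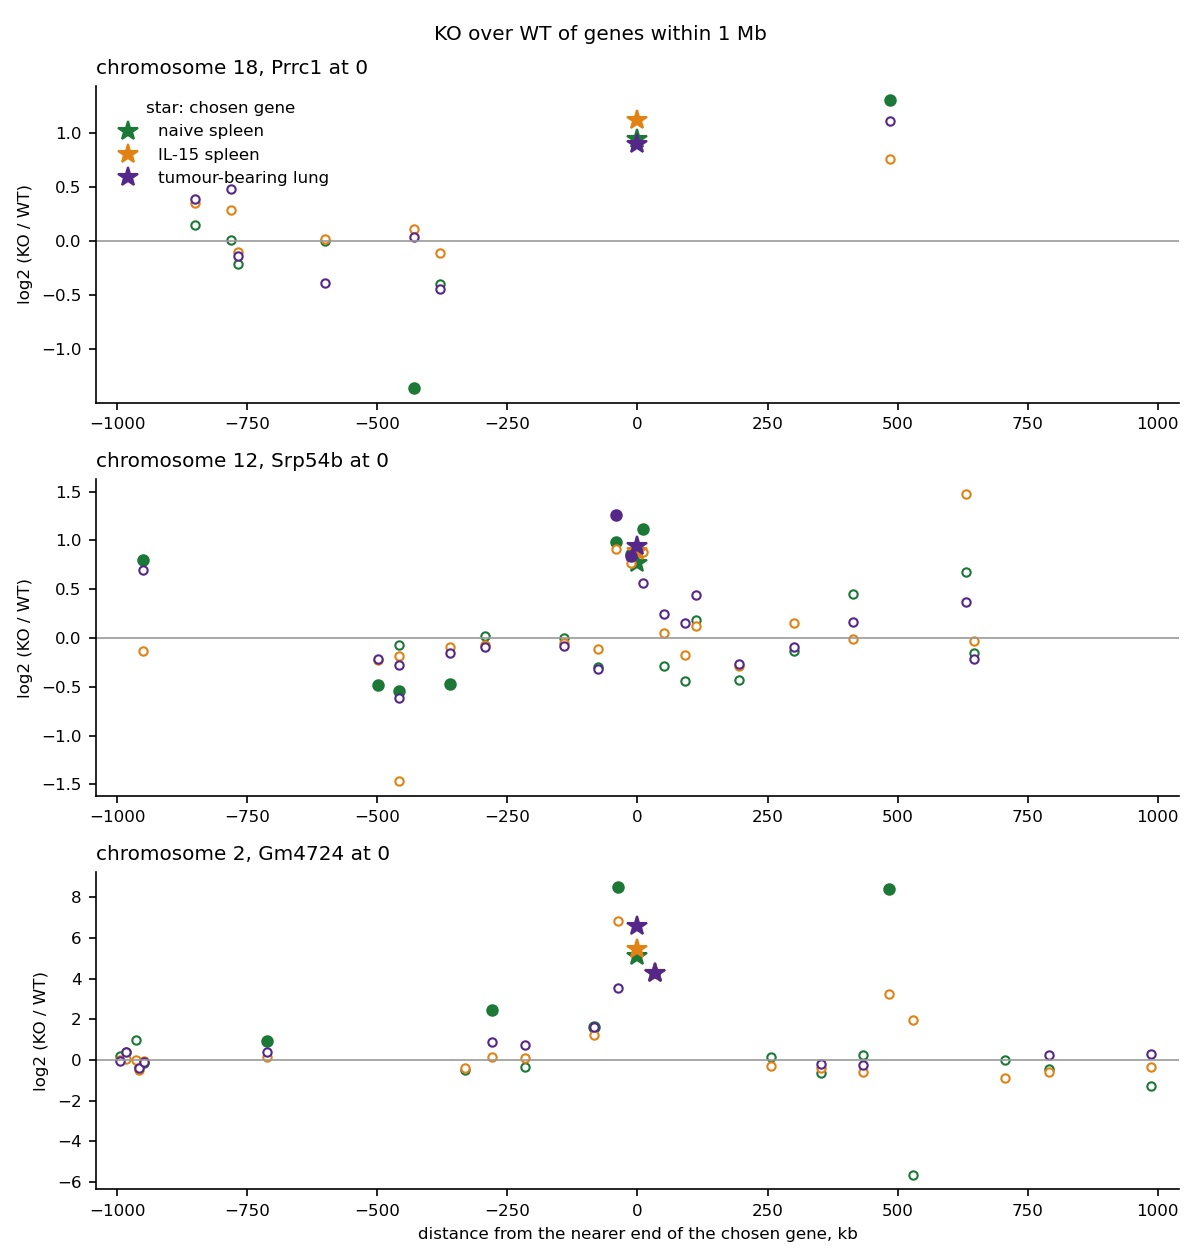
Fitted log2 ratio of KO over WT (vertical axis) of tested genes within 1 Mb against their distance in kb from Prrc1, Srp54b and Gm4724 (stars, chosen genes, Gm8923 included); filled circles passed at an adjusted p under 0.05 and open circles did not. Next to Srp54b the neighbours 42.2 and 13.0 kb below and 10.3 kb above stand higher in KO, and fitted values above 8 belong to genes at 0 in all WT naive libraries, so they are no measure of size.

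Around Gm4724, 5 of 19 tested neighbours were higher in KO naive spleen and 0 lower, and around Gm8923, 6 of 16 were higher and 0 lower. These are not separate tallies: the 5 called around Gm4724 are among the 6 around Gm8923, and only Gm14434 is added around Gm8923. Under IL-15 edgeR called 0 around both, with 3 and 4 at an unadjusted p under 0.05 and 2 by DESeq2 around each. In lung edgeR called 0 of 13 around Gm4724, with 4 at an unadjusted p under 0.05 and 2 by DESeq2, and 1 of 11 around Gm8923. Tests of neighbours that share windows with a member are not independent of the choice of that member. Gm4631 had 61.4% of its windows to itself. It averaged 5.53 ± 1.81 CPM in KO and 1.80 ± 1.07 CPM in WT naive spleen (log2 difference 1.62 ± 0.35, edgeR adjusted p = 0.00390), 13.5 ± 2.51 CPM in KO and 5.65 ± 0.432 CPM in WT cells under IL-15 (1.24 ± 0.33, 0.556), and 4.75 ± 1.55 CPM in KO and 1.54 ± 0.710 CPM in WT lung (1.62 ± 0.38, 0.0990).

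Several other genes of the array were near 0 in WT cells, and the same limit holds for those that share windows with a member. Gm4723 had 0, 1.85, 1.18 and 3.41 CPM in KO naive spleen and 0 in all 4 WT libraries, at least 66.9-fold higher in KO against a floor of 3 counts over the WT group (edgeR adjusted p = 0.00163). Gm8898 had 0, 2.35, 1.43 and 2.14 CPM in KO naive spleen and 0 in all WT libraries, at least 61.5-fold higher against the same floor (0.00197). Both lacked counts in KO naive replicate 1, the shallow library. Gm14434 averaged 3.24 ± 2.95 CPM in KO and 0.0437 ± 0.0873 CPM in WT naive spleen (edgeR adjusted p = 0.00355), and 4.59 ± 2.41 CPM in KO and 0.448 ± 0.375 CPM in WT lung (0.0344). The lung call of Gm14434 held in only 2 of 8 fits that left out 1 library, and was lost without any of the 4 KO lung libraries or without WT lung replicates 2 or 4.

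Gm14399 averaged 1.57 ± 1.11 CPM in KO and 0.280 ± 0.221 CPM in WT naive spleen (log2 difference 2.48 ± 0.84, edgeR adjusted p = 0.0443), held in 2 of 8 such fits and was lost without KO naive replicates 2, 3 or 4 or WT naive replicates 2, 3 or 4. Zfp831, a zinc finger gene outside the array, averaged 59.1 ± 14.4 CPM in KO and 30.3 ± 5.16 CPM in WT naive spleen (0.94 ± 0.21, 0.00431). Gm14391 averaged 2.74 ± 1.26 CPM in KO and 3.45 ± 1.08 CPM in WT naive spleen, and Gm6710 averaged 3.60 ± 0.169 CPM in KO and 2.97 ± 1.55 CPM in WT. Neither passed in any state, nor did Gm4245, Gm14288, Gm2004 or Gm2026 where tested. Gm2026, which holds 95.6% of the windows of Gm4724, had 0 in all 4 KO naive libraries. It averaged 0.207 ± 0.39 CPM in WT naive spleen (edgeR adjusted p = 0.152). Under IL-15 it averaged 0.878 ± 0.875 CPM in KO and 0.222 ± 0.277 CPM in WT cells. Gm14435 stood at 2.18 ± 1.73 CPM in KO and 5.35 ± 1.12 CPM in WT naive spleen, without passing (edgeR adjusted p = 0.0724). Gm14440 did not pass the filter on low counts in any state.

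Beyond 1 Mb, Gm14306 and Gm14308, which hold the largest shares of the windows of Gm8923 and Gm4724, had higher means in KO cells. Reads may be divided between them and members chosen on KO against WT, so their tests are not independent of that choice. Gm14305, also beyond 1 Mb and in 64.2% of the windows of Gm4724, averaged 7.74 CPM in KO and 7.07 CPM in WT naive spleen. Gm14327, beyond 1 Mb and in 18.2% of the windows of Gm8923, had lower means in KO spleen. It averaged 0.459 ± 0.521 CPM in KO and 1.23 ± 1.0 CPM in WT naive spleen. Under IL-15 it averaged 0.943 ± 0.309 CPM in KO and 1.35 ± 0.317 CPM in WT cells. In lung it averaged 0.587 ± 0.497 CPM in KO and 0.517 ± 0.114 CPM in WT. Gm14306 averaged 2.44 ± 1.76 CPM in KO and 0.0506 ± 0.0782 CPM in WT naive spleen (edgeR adjusted p = 0.0038), 4.96 ± 0.306 CPM in KO and 0.21 ± 0.186 CPM in WT cells under IL-15 (0.134), and 3.33 ± 1.08 CPM in KO and 0.07 ± 0.0817 CPM in WT lung (0.00307). Gm14308, chosen after its values were seen, had 0, 0.231, 5.06 and 0.516 CPM in KO naive spleen and 0 in all WT naive libraries, at least 57.4-fold higher against 3 counts over the WT group (edgeR adjusted p = 0.0195, 0.0705 without KO naive replicate 3). In lung it was at least 62.6-fold higher against the same floor (0.0202, lost without KO lung replicates 2, 3 or 4 or WT lung replicate 2), and under IL-15 its adjusted p was 1.0.

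By the smallest root mean square distance of centred log2 CPM over the 24 libraries, the gene most like Prrc1 was Srp54b and the gene most like Srp54b was Prrc1, at 0.196, against a spread of 0.545 for Prrc1 and 0.481 for Srp54b about their own means. The next genes were farther: Fam35a at 0.355 from Prrc1 and 0.331 from Srp54b, then Ndst1, Aff3 and Cwf19l1 at 0.363 to 0.385 from Prrc1, and Cwf19l1, Pml and Ncdn at 0.363 to 0.368 from Srp54b. Gm8923 was nearest to Ifi202b on chromosome 1, at 0.968, then to Hist1h4m, Gm4723, Gm4724 and Slamf1 at 1.06 to 1.35. Gm4724 was nearest to Hist1h4m at 1.32, then to Gm8923 at 1.34, Ifi202b at 1.40, Gm4723 at 1.58 and Gm14306 at 1.72. The profiles share the libraries and their genotype, so the likeness of genes chosen on genotype is a description. Ifi202b, like Hist1h4m, had counts in every KO library and 0 in every WT library.

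Genes that work with the members were counted by list, without the members. Of 26 signal recognition particle and translocon genes tested, 2 were higher and 4 lower in KO naive spleen, where 11.1% of all genes tested were higher and 9.22% lower, with a median log2 difference of -0.30 against 0.0 over all genes tested. The higher ones were Srp54c and Sec63. Srp54c shares most of its windows with Srp54b, so its calls here and in lung are not independent of the choice of that member. Sec63, a translocon partner, averaged 66.5 ± 8.10 CPM in KO and 48.1 ± 7.74 CPM in WT (log2 difference 0.44 ± 0.12, edgeR adjusted p = 0.0175, lost without KO naive replicate 4 or WT naive replicate 3). Srp19, which binds the particle's RNA, averaged 37.6 ± 7.61 CPM in KO and 62.4 ± 9.59 CPM in WT (-0.75 ± 0.16, 0.00341). Tram1, a translocon membrane protein, changed by -0.51 ± 0.13 (0.0113) and Spcs2, a signal peptidase subunit, by -0.40 ± 0.11 (0.0167). Under IL-15 edgeR called 0 of 26, with 1 at an unadjusted p under 0.05 and 0 by DESeq2 (median -0.11 against -0.01), and in lung only Srp54c was called (median -0.18 against 0.0).

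Of 21 genes of ER exit sites and the COPII coat, 2 were higher and 4 lower in KO naive spleen, against the same 11.1% and 9.22% over all genes, with a median of -0.15 against 0.0. The lower ones included Sec13, an outer coat subunit, at 59.2 ± 5.27 CPM in KO and 85.1 ± 1.95 CPM in WT (log2 difference -0.55 ± 0.10, edgeR adjusted p = 0.000929). Tmed2, a cargo receptor, changed by -0.48 ± 0.10 (0.00323), and Sar1b, the GTPase that starts the coat, by -0.51 ± 0.14 (0.0149). Sec16a, the scaffold of exit sites, was higher by 0.55 ± 0.17 (0.0274) and Sec24b, a cargo adaptor, by 0.31 ± 0.11 (0.0462), but these passed in 3 and 2 of the 8 fits that left out 1 library. Sec16a was lost without KO naive replicates 2 or 4 or WT naive replicates 1, 2 or 3, and Sec24b without these or KO naive replicate 3. Under IL-15 and in lung edgeR and DESeq2 both called 0 of 21, with 0 and 2 at an unadjusted p under 0.05 (medians -0.03 against -0.01 and -0.06 against 0.0).

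Of 12 protein kinase A genes, 3 were higher and 1 lower in KO naive spleen, against 11.1% and 9.22% of all genes, with a median of -0.05 against 0.0. The anchoring protein genes Akap13 and Akap8 were higher: Akap13 averaged 166 ± 23.7 CPM in KO and 67.3 ± 18.4 CPM in WT (log2 difference 1.28 ± 0.19, edgeR adjusted p = 0.000268), and Akap8 averaged 88.9 ± 15.3 CPM in KO and 56.2 ± 3.13 CPM in WT (0.64 ± 0.14, 0.00386). Akap1 averaged only 1.01 ± 1.45 CPM in KO and 0.112 ± 0.130 CPM in WT, and its call (0.0237) was lost without KO naive replicate 1 or WT naive replicates 1, 2 or 4. Prkar2a, a regulatory subunit, changed by -0.36 ± 0.12 (0.0350), a call lost without KO naive replicates 2 or 4 or WT naive replicates 2, 3 or 4. Under IL-15 both tools called 0 of 12, with 0 at an unadjusted p under 0.05 (median -0.07 against -0.01), and in lung both called 0 of 11, with 1 at an unadjusted p under 0.05 (median 0.11 against 0.0). The calls in these lists other than Srp54c came in naive spleen, where most calls over all genes also fell. Over all genes tested, only 0.0824% were higher and 0.0525% lower under IL-15, and 0.305% higher and 0.32% lower in lung. Prrc1 and Srp54b were higher in KO in all 3 states, but they were chosen on this contrast and are not set against the lists. The difference between states was not tested.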

How the data were processed

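Poly(A) RNA of 24 mouse NK cell samples was sequenced from a directional kit, per the labels. The authors deposited 1 table of RSEM expected counts for 38215 genes (5.47% of values not whole at a tolerance of 0.005). RSEM 1.2.30 with STAR 2.5.2a, cutadapt 1.9 and the GRCm38 build are named, per the submitters' processing notes. Settings, annotation release and strandedness of counting: not given in the sources used here. Members and gene lists were chosen with earlier results of these data known.

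Counts were rounded and tested by the quasi-likelihood F test of edgeR 4.0.16 (R 4.3.3) after filterByExpr and TMM scaling, with Benjamini-Hochberg adjustment over all genes and a threshold of 0.05, fitting 16 spleen libraries together, 8 lung libraries together, and all 24 for lung against naive. A standard error here is the absolute log2 change over the square root of F. CPM uses TMM-scaled library sizes over 24 libraries. Genes were matched to GENCODE M21 by position for windows, exon lengths and sequences. Marker sums were compared by exact permutation in SciPy. The tests were tried on simulated counts. Alternatives were DESeq2 1.42.0, other filters, scalings and fits, each library left out, and copies summed. Named genes were the 4 members, their paralogs, neighbours within 1 Mb and list genes passing in KO against WT, array genes with a group mean of 1 CPM or more, the 5 nearest profiles, and genes off chromosome 1 passing in all 3 states. Same-numbered libraries did not deviate together (correlations -0.19 to 0.25), so numbers were not taken as pairs.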

Additional observations from a re-analysis of the deposited data

Results flagged for a closer look

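Within groups of 4 libraries, 54 sets of values were examined for 9 genes, and chance marks about 1 group in 20 as having a library far from the others. For Srp54b, the lowest KO IL-15 library, at 76.1 CPM, stood apart from the other 3. The highest WT lung library of Gm4724, at 0.115 CPM, stood apart because the other 3 had 0. Slc12a2 had its lowest WT lung library, at 5.81 CPM, apart from the others, and Fam177a its lowest KO IL-15 library, at 23.2 CPM.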

How the results depend on the processing

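The members were chosen on KO against WT, and every KO library lay above every WT library. Leaving out a library could therefore hardly turn the sign. KO-over-WT log2 differences of the members kept their sign under every alternative run, and nothing is read from this. Where genes were kept separate they were at 0.84 to 1.17 for Prrc1 and 0.72 to 1.00 for Srp54b over the 3 states. Gm8923 ranged from 3.81 to 5.44, the highest without WT lung replicate 2, and Gm4724 from 4.66 to 9.42, the highest without WT lung replicate 4; these sizes rest on WT libraries near 0. Summed over genes that share windows they were 0.42 to 0.69 for the Srp54 copies, 0.82 to 2.08 for the Gm8923 set, 1.40 to 1.94 for the Gm4724 set and 0.94 to 1.60 for the 19 zinc finger genes. Leaving out both shallow libraries together, and summing the genes that share windows with Gm4724, Gm8923 or Fam177a, were chosen after seeing the data.

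Genes called in KO against WT numbered 2705 in naive spleen (1697 to 2729 with 1 library left out), 18 in IL-15 spleen (14 to 17; 30 by DESeq2) and 82 in lung (41 to 448; 129 with no filter, 316 by DESeq2 and 448 without both shallow libraries). With a replicate block the counts were 2458, 14 and 62, and, for IL-15 against naive, 5399 in KO and 6870 in WT, and for lung against naive, 5941 in KO and 6988 in WT, against 5563, 6994, 6050 and 7020 without it. Replicate numbers gave no pairing: at most 2 of 4 libraries correlated best with their own number in any comparison. Counts between states stayed within 1.5 times under all alternatives run.

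Small log2 changes that did not pass turned sign in places, and the cause was not tested. Srp54a in naive KO against WT kept its sign where genes were kept separate, at -0.42 to -0.1, and the 0.42 of the summed copies is the value of the sum. In KO against WT under IL-15, Srp54a ran from -0.01 to 0.13 with 1 library left out. In KO cells under IL-15 against naive, Gm8923 ran from -0.39 to 0.24 and Srp54a from -0.01 to 0.31 (-0.01 also without both shallow libraries). In WT cells under IL-15 against naive, Prrc1 ran from -0.13 to 0.01 (0.01 also with all 24 libraries fitted), Gm8923 from -1.33 to 0.15, Gm4724 from -2.69 to 1.11 and Srp54c from -0.36 to 0.04. In KO lung against naive, Srp54a ran from -0.05 to 0.26 (-0.05 also without both shallow libraries). Depth limits the chromosome 2 genes most, since a WT group held 3 to 25 counts of either.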
